A study of Mus musculus with 2 samples.

Results

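Prostaglandins are short-lived lipid signals that fibroblasts make and release. The cyclooxygenases convert arachidonic acid, freed from membranes by phospholipases, into the common precursor PGH2, and terminal synthases turn PGH2 into PGE2, prostacyclin and the other prostanoids. These act on nearby cells through G protein-coupled receptors until they are taken up and oxidised. Here 10 genes of this system were followed: the cyclooxygenases Ptgs1 and Ptgs2, the terminal synthases Ptges and Ptgis, the PGE2 receptors Ptger2, Ptger3 and Ptger4, the PGF2alpha receptor Ptgfr, the prostacyclin receptor Ptgir, and the inactivating enzyme Hpgd. They were chosen by gene symbol, with earlier results of these data known. All 10 were found among the 17260 mRNA genes of the deposited table.

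RNA was sequenced from 1 wild-type (WT) culture of mouse embryonic fibroblasts and from 1 culture labelled Ahi1-/-. Ahi1 encodes a protein at the base of the primary cilium. Both cultures came from C57BL/6 embryos at embryonic day 13.5 and grew in DMEM with 10% serum. DNBSEQ libraries were built from 1 ug of total RNA each. The labels do not say how Ahi1 was disrupted, how many embryos each culture came from or at which passage cells were taken. The libraries held 19067504 (WT) and 20820756 expected counts. With 1 library per genotype there are no replicates, so each difference compares these libraries, carries an interval for counting error only, and has no test and no p-value.

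Ahi1 itself had 410 and 370 counts (log2 ratio -0.16, 95% counting interval -0.37 to 0.05) and so did not check the labels. The second library is therefore called the library labelled Ahi1-/-, and in every pair of values below WT stands first. The deposited column heads read CON and EXP, which were taken as WT and Ahi1-/-. None of 14 fibroblast markers was at 0 in either library. The leukocyte, smooth muscle and chondrocyte marker lists held none at 0 either, so this does not identify the cells. By the rule for calls given below, 9 of the 14 fibroblast markers were higher and 0 lower in the library labelled Ahi1-/- (beside 16.0% and 10.3% of all genes). Their summed level was 8940 and 23500 TPM.

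The make-up of the prostaglandin genes differed between the libraries. Ptgs2, Ptgis and Ptger4 exceeded their WT level by 6.53-fold, 24.0-fold and 3.68-fold, while Ptgs1 was 2.98-fold lower. Ptges, Ptgfr and Ptgir lay within 2-fold. A gene counts as higher or lower here when its scaled counts differ 2-fold or more and 1 library holds 50 counts or more, and 7 of the 10 genes reached that minimum. Of these 7, 3 (42.9%) were higher, where 16.0% of all 12075 genes with the minimum were higher, and 1 (14.3%) was lower, where 10.3% of all genes were. With so few genes, 1 gene more or less moves these shares widely. The genes were also chosen with earlier results of these data known, so a share above that of all genes is not independent support. Hpgd, Ptger2 and Ptger3 stayed under the minimum. With a minimum of 10 counts, 5 members were higher and 1 lower, where 19.4% and 11.7% of all genes were. At 4-fold the counts were 2 and 0 (8.93% and 2.48% of all genes), and at 1.5-fold they were 3 and 1 (23.6% and 21.6%). Over the 9 genes whose summed counts reached 10 the median log2 ratio was 1.88, beside -0.01 over all 14485 such genes. It was 0.20 over the members with at least 100 summed counts, so the median rests on Hpgd and Ptger2, which had few reads. In bulk RNA, a change in the number of cells that express a gene and a change in RNA per cell cannot be told apart.

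**Figure D1:**
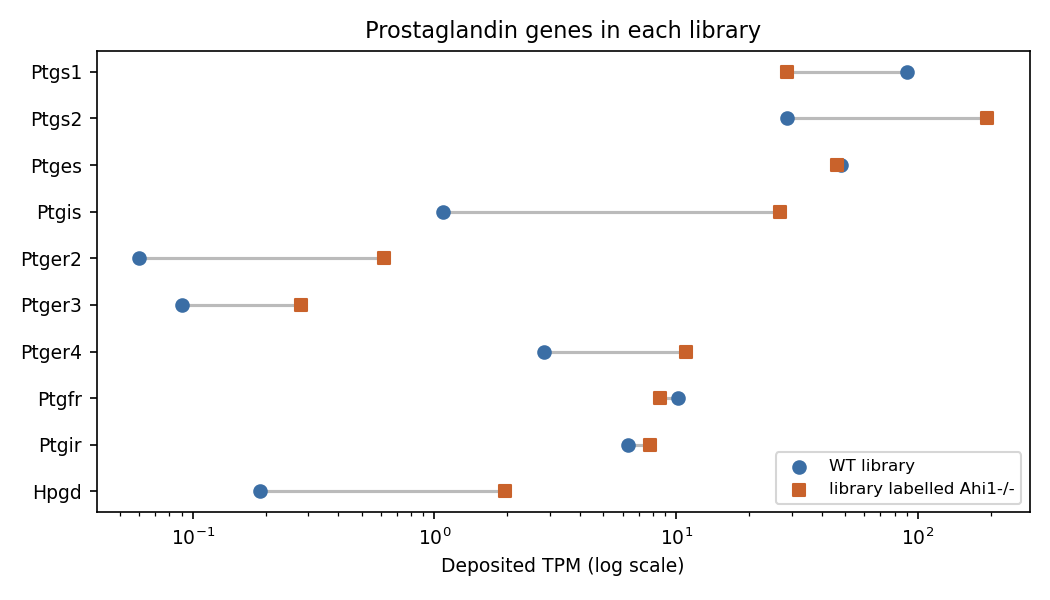
Deposited TPM of each of the 10 genes (log scale) in the WT library (circles) and the library labelled Ahi1-/- (squares), 1 library each. Ptgs1 and Ptgs2 change places, Ptgis moves from 1.08 to 26.9 TPM, and Ptges stays near 46 to 48 TPM.

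**Figure D2:**
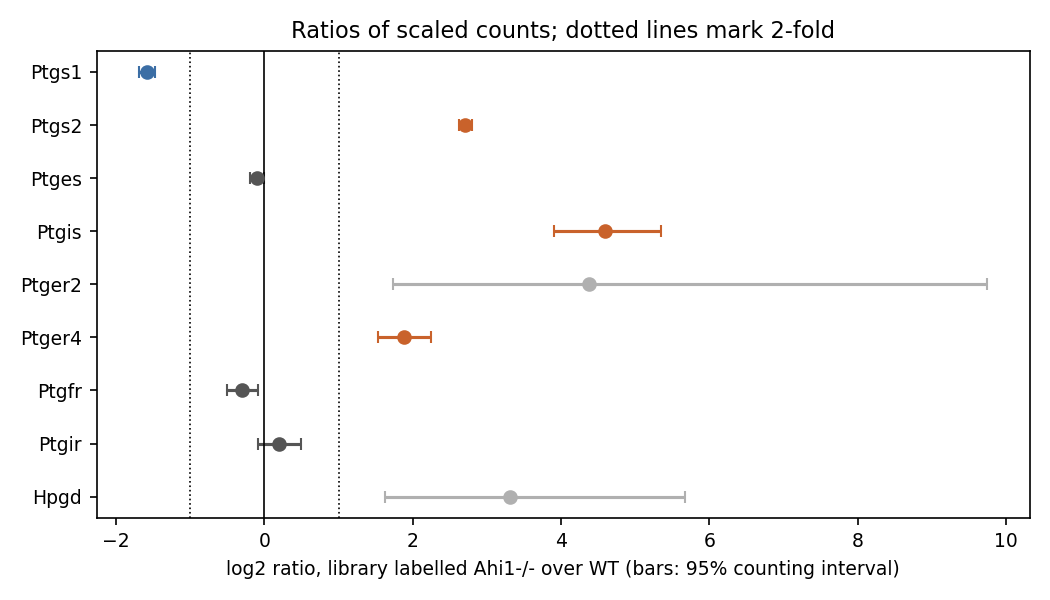
Log2 ratio of scaled counts, library labelled Ahi1-/- over WT, for the 9 genes with more than 3 counts in a library; bars are 95% counting intervals and dotted lines mark 2-fold. Orange points were called higher, the blue point lower, dark grey points lay within 2-fold, and the pale grey points of Ptger2 and Hpgd had under 50 counts in both libraries.

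The cyclooxygenases went in opposite directions. Ptgs1 encodes COX-1, the form that most tissues make constitutively, and Ptgs2 encodes COX-2, the form induced by growth factors, serum and cytokines. Ptgs1 (Entrez gene 19224, chromosome 2) had 2742 counts in WT against 927, which are 90.1 and 28.7 TPM, a level corrected for transcript length and library size. Its log2 ratio was -1.58 (interval -1.69 to -1.47). Ptgs2 (Entrez gene 19225, chromosome 1) had 1186 and 7814 counts, or 28.7 and 193.69 TPM, with a log2 ratio of 2.71 (2.62 to 2.80). The TPM of Ptgs2 in WT thus equalled that of Ptgs1 in the other library. The median log2 ratio of all measured genes was -0.12 on chromosome 2 and 0.29 on chromosome 1. With these medians subtracted the ratios were -1.46 for Ptgs1 and 2.42 for Ptgs2, both outside their counting intervals. Ranked by TPM among 17260 genes, Ptgs2 went from place 5363 to place 817 and Ptgs1 from 1929 to 5413.

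Because both genes were read in the same library, their balance does not depend on how the libraries were scaled. Ptgs2 made up 24.2% of the summed cyclooxygenase TPM in WT and 87.1% in the other library. As a share of counts, which favours longer transcripts, it was 30.2% (exact Clopper-Pearson 95% interval 28.8% to 31.7%, of 3928 counts) and 89.4% (88.7% to 90.0%, of 8741 counts). Ptgs1 was 3.14 times as abundant as Ptgs2 by TPM in WT, and the order was reversed, at 6.75 times, in the library labelled Ahi1-/-. The sum of both was 119 TPM in WT and 222 TPM in the other library. For Ptgs1 the counts per unit of TPM, which follow the transcript length assigned to a gene, were 8.7% higher in the library labelled Ahi1-/- relative to the other genes. The central 90% of 9468 well-covered genes lay between -3.5% and 2.6%. The isoforms behind this shift were not analysed here.

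The promoter windows of Ptgs2, Ptgs1 and Ptger4, the called members with an entry among the RefSeq promoters (GRCm38.p6, 9 of 10 members matched), are shown because Ptgs1 differed in the direction opposite to Ptgs2 and Ptger4. Each window holds 250 bases before and 30 after the annotated start, 5′ to 3′ on the gene's strand. Ptgis, the other called member, has no entry and so no window here. Ptgs2 lies at chr1:150099781-150100060 (+), Ptgs1 at chr2:36230176-36230455 (+) and Ptger4 at chr15:5244158-5244437 (-). Capitals mark matches to a set of motifs searched on both strands.
Ptgs2: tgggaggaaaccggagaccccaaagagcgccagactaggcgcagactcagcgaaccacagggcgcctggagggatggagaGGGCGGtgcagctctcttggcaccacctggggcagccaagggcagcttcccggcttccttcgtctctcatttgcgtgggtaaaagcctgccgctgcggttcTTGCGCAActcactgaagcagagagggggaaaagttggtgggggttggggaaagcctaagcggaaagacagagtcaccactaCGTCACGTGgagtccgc
Ptgs1: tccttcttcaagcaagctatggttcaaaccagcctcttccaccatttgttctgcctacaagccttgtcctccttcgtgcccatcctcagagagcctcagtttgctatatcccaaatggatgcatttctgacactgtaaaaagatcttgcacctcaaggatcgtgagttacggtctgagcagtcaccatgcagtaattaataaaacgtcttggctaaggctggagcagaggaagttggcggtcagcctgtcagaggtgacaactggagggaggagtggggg
Ptger4: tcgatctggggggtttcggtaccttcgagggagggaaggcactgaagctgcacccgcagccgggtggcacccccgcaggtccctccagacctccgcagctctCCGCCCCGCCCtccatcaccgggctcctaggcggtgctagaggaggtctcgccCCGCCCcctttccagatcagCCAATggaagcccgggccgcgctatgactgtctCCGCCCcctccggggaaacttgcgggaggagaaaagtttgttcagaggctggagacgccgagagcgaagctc
The motifs were the CRE half-site CGTCA and the full CRE TGACGTCA (read by CREB factors), the E-box CACGTG, the C/EBP palindrome TTGCGCAA, the TATA box TATAAA, the CCAAT box, the GC box GGGCGG, the AP-1 site TGANTCA, the NF-kappaB consensus and the CArG box. The full CRE contains the half-site.

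Among the windows of the 9 matched genes, the CRE half-site, the E-box and the C/EBP palindrome were found only in that of Ptgs2. The half-site begins at base 14 after the annotated start and the E-box at base 17, so they share 2 bases, and the C/EBP palindrome begins 69 bases before the start. Over all 32851 promoter windows of this length, 19.9% hold the half-site, 6.79% the E-box and 0.18% the palindrome. The motifs were chosen after these sequences were seen, so their presence only in Ptgs2 and their rarity are a description and not a test. The GC box was found in 7 of the 9 windows and in 34.7% of all windows, with 4 matches in Ptger4, of which the first pair shares 1 base. CCAAT was found in Ptger2 and Ptger4 (36.1% of all windows) and TATAAA in Hpgd (13.1%). The TATAAA of Hpgd begins at base 5 after the annotated start, not before it, as do the half-site and E-box of Ptgs2. Where transcription starts in these cells was not measured, so all positions given are those of the annotation. They do not place a motif inside or outside the transcript made. None of the 9 windows held the full CRE (1.74% of all), the AP-1 site (7.46%), the NF-kappaB consensus (7.94%) or the CArG box (1.56%). The Ptgs1 window held no match to any of the 10 motifs. It has 5 CpG dinucleotides, against 16 for Ptgs2 and 22 for Ptger4 and a median of 6 over all windows. The other matched windows hold 3 (Ptger2), 5 (Ptgir), 9 (Ptges), 11 (Ptgfr), 11 (Hpgd) and 26 (Ptger3). Whether CpG number goes with the direction of a difference was not tested. A match describes the letters of a window and is not evidence of binding.

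Of the terminal synthases, the one for PGE2 stayed level and the one for prostacyclin did not. Ptges encodes the inducible microsomal PGE synthase, which is known to work with COX-2. Ptges (Entrez gene 64292, chromosome 2) had 1600 and 1507 counts, or 47.87 and 46.07 TPM, with a log2 ratio of -0.10 (-0.20 to 0.00). Ptgis encodes prostacyclin synthase, a cytochrome P450 typical of vessel walls. Ptgis (Entrez gene 19223, chromosome 2) had 18 and 436 counts, or 1.08 and 26.9 TPM. Its log2 ratio was 4.59 (3.91 to 5.35), and 346 of the 12075 genes with the minimum count had a larger upward ratio. Ptges was 44.3 times as abundant as Ptgis by TPM in WT and 1.71 times in the other library. The ratio of Ptgs2 to Ptges TPM was 0.60 and 4.2.

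The other synthases mostly lay within 2-fold. Of 6 with the minimum count, 1 (16.7%) was higher and 0 were lower, beside 16.0% and 10.3% of all genes, so the share that was higher is near that of all genes. Ptges2, a second membrane PGE synthase, had 20.81 and 20.05 TPM, and Ptges3, the HSP90 cochaperone p23 that also carries PGE synthase activity, had 243.26 and 232.57 TPM. Prxl2b, which encodes a PGF synthase, was the gene that differed 2-fold or more, with 19 and 129 counts (6.73-fold higher, log2 2.75, 2.05 to 3.53). Its level was 2.76 and 19.16 TPM. Akr1b3, a far more abundant gene of this list, had 213.1 and 144.17 TPM (1.53-fold lower, log2 -0.61, -0.70 to -0.52). Transcripts of the synthases for PGD2 and thromboxane were scarce in both libraries. Hpgds had 10 and 9 counts, Tbxas1 17 and 14, and Ptgds 1 and 0. These genes were named after their values were seen, apart from Prxl2b.

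Among the receptors, Ptger4 was higher and the 2 receptors with the most transcripts in WT changed little. Ptgfr encodes FP, the Gq-coupled receptor for PGF2alpha. Ptgfr (Entrez gene 19220, chromosome 3) had 417 and 341 counts, or 10.2 and 8.55 TPM, with a log2 ratio of -0.30 (-0.51 to -0.09). Ptgir encodes IP, the Gs-coupled receptor for the product of Ptgis. Ptgir (Entrez gene 19222, chromosome 7) had 193 and 224 counts, or 6.33 and 7.76 TPM, with a log2 ratio of 0.20 (-0.08 to 0.49), an interval that includes 0. Ptger4 encodes EP4, a Gs-coupled receptor that raises cAMP in response to PGE2. Ptger4 (Entrez gene 19219, chromosome 15) had 87 and 323 counts, or 2.83 and 10.94 TPM, with a log2 ratio of 1.88 (1.53 to 2.24).

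The other PGE2 receptors had few reads. Ptger2 encodes EP2, also Gs-coupled, and had 1 and 21 counts (0.06 and 0.62 TPM). Its log2 ratio of 4.38 has an interval of 1.74 to 9.75, so the size of the difference is loosely bounded. Ptger3 encodes EP3, which lowers cAMP through Gi, and had 1 and 3 counts, too few for a ratio. Ptger1, the Gq-coupled PGE2 receptor that completes the set, had 68 and 73 counts (log2 0.09, -0.41 to 0.59). It was named after its value was seen.

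Over the 9 prostanoid receptor genes the summed level was 21.3 TPM in WT against 43.9 TPM. Ptgfr made up 47.9% of that sum in WT and 19.5% in the other library, and Ptgir 29.7% and 17.7%. Ptger4 went from 13.3% to 24.9%. The largest gain in share was that of Tbxa2r, the thromboxane receptor, from 0.845% to 32.0%. Tbxa2r had 3 and 230 counts, a log2 ratio of 6.25 (4.68 to 8.54). The PGD2 receptors had at most 3 counts in either library (Ptgdr 0 and 1, Ptgdr2 3 and 1). Ptgfrn, which encodes a membrane partner of FP, had 7002 and 4823 counts (1.46-fold lower). It, Ptgdr and Ptgdr2 were named after their values were seen.

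**Figure D3:**
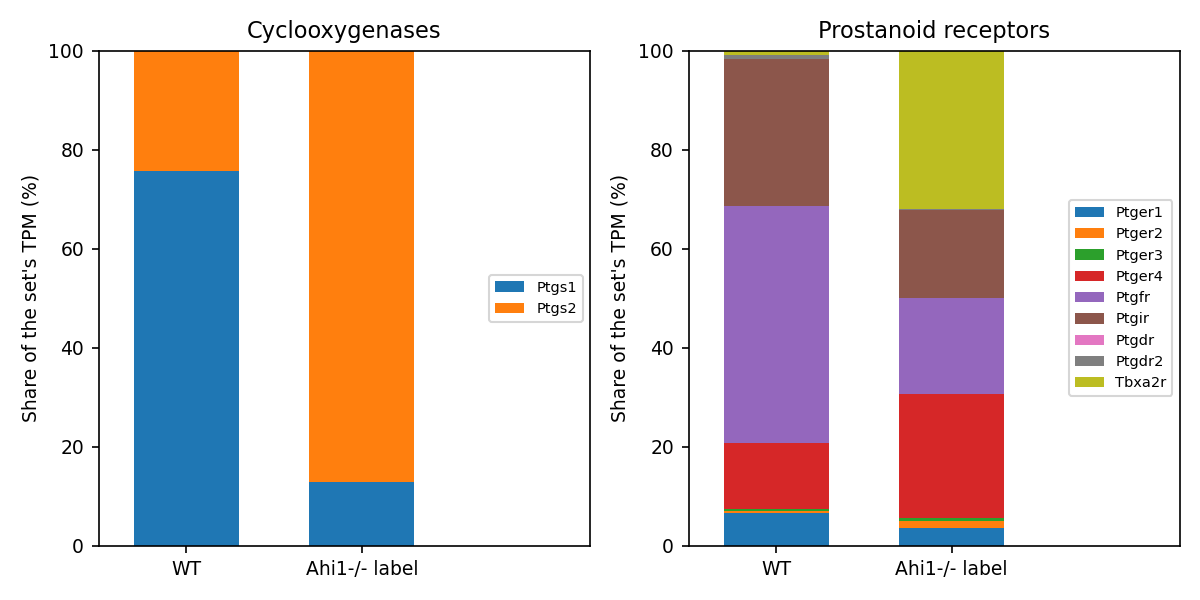
Share of summed TPM (%) held by each cyclooxygenase (left) and each of the 9 prostanoid receptors (right) in the WT library and the library labelled Ahi1-/-. Ptgs2 goes from 24.2% to 87.1% of the cyclooxygenase TPM, and Ptger4 and Tbxa2r take a larger share of the receptor TPM.

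Hpgd, the dehydrogenase that starts prostaglandin breakdown, was scarce in both libraries. Hpgd (Entrez gene 15446, chromosome 8) had 3 and 30 counts, or 0.19 and 1.96 TPM, with a log2 ratio of 3.31 (1.62 to 5.67). The median log2 ratio of the 773 measured genes on chromosome 8 was -0.36. Breakdown also needs uptake, and Slco2a1, the prostaglandin transporter that feeds Hpgd, had 39 and 1201 counts (30.5-fold higher, log2 4.93, 4.47 to 5.43). Slco3a1, a related carrier, had 545 and 1198 counts (2.18-fold higher). Of the 8 transport and breakdown genes outside the 10, all with the minimum count, 2 were higher and 0 were lower, beside 16.0% and 10.3% of all genes. Ptgr1 and Ptgr2, the reductases of the next step, had log2 ratios of -0.01 and -0.05, and Abcc4, a prostaglandin exporter, had 858 and 441 counts (log2 -0.97). Ptgr1, Ptgr2 and Abcc4 were named after their values were seen.

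**Figure D4:**
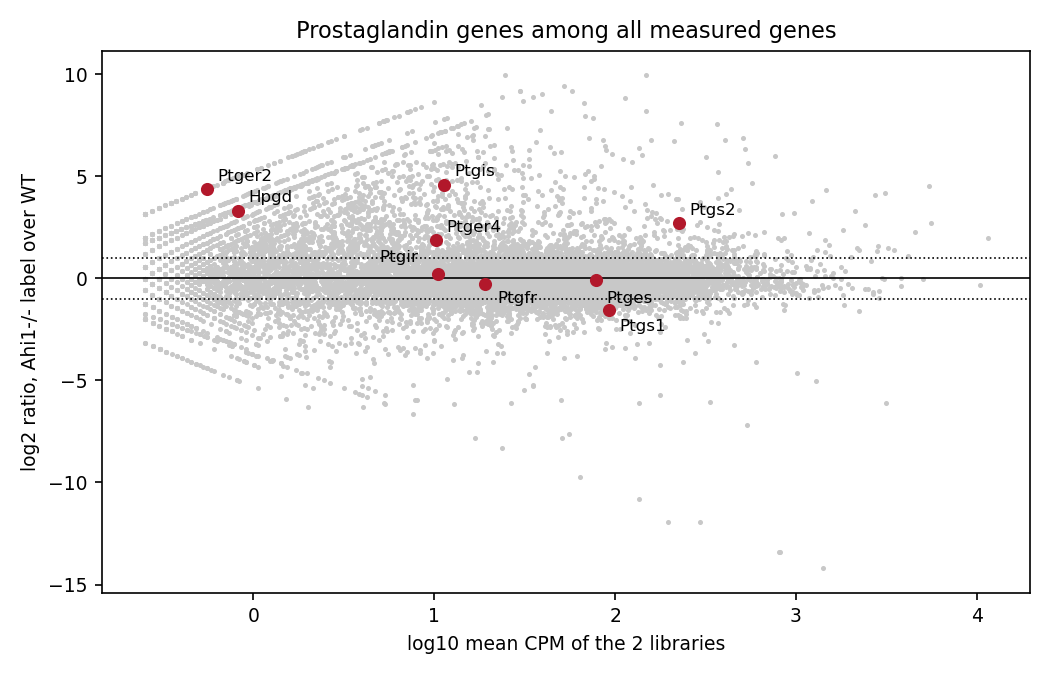
Log2 ratio (library labelled Ahi1-/- over WT) against log10 mean CPM for all genes with at least 10 summed counts (grey), with 9 prostaglandin genes in red; dotted lines mark 2-fold. Ptgs2 is the most abundant of the 9, and Ptger2 and Hpgd sit at the low-count edge where the ratios of all genes spread most.

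Of 15 genes for arachidonic acid release with the minimum count, 3 (20.0%) were higher and 3 (20.0%) were lower, beside 16.0% and 10.3% of all genes. The median log2 ratio over 20 measured genes was 0.34. Pla2g4a encodes cytosolic phospholipase A2, the main enzyme that supplies the cyclooxygenases, and had 363 and 1623 counts (13.80 and 63.22 TPM, 4.43-fold higher, log2 2.15, 1.98 to 2.32). It was named after its value was seen. Pla2g7, a secreted phospholipase that degrades platelet-activating factor, had 20 and 838 counts (41.5-fold higher). Mgll, the lipase that frees arachidonic acid from 2-arachidonoylglycerol, had 19 and 145 counts (7.56-fold higher). Faah, which hydrolyses anandamide, had 54 and 2 counts (log2 -4.77, -7.85 to -2.85), and Pla2g4c had 76 and 16 (4.79-fold lower).

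Downstream of the receptors, 20 genes of G proteins, adenylyl cyclases and protein kinase A had a median log2 ratio of 0.37. Of these, 6 were higher and 1 was lower, beside 16.0% and 10.3% of all genes. The genes with the largest ratios were scarce in WT. Gnai1, a Gi subunit, had 8 and 579 counts (71.7-fold higher), Adcy1 4 and 98 (24.3-fold), Adcy4 12 and 192 (15.9-fold) and Adcy2 14 and 148 (10.5-fold). The abundant Gs gene Gnas had 27764 and 29907 counts (log2 0.09) and was named after its value was seen. Of 19 genes that respond to or carry cAMP signals, 6 (31.6%) were higher and 2 (10.5%) lower, around a median of 0.48. The share that was lower is near that of all genes. The phosphodiesterase genes Pde10a (25 and 419 counts) and Pde4d (195 and 972) were 16.6-fold and 4.94-fold higher, and Nr4a3, an immediate early nuclear receptor, had 35 and 106 counts (3.0-fold higher). Areg, which encodes the EGF receptor ligand amphiregulin, had 51 and 15 counts (3.43-fold lower).

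The cytokine and NF-kappaB genes known to act on Ptgs2 and Ptges centred on a median log2 ratio of -0.13. Among 21 with the minimum count, 2 (9.52%) were higher and 2 (9.52%) were lower, beside 16.0% and 10.3% of all genes. Il1r1, the receptor for interleukin 1, had 1585 and 4161 counts (2.60-fold higher), and Il1rn, which encodes the antagonist of that receptor, had 11 and 687 (61.9-fold higher). Nfkb2 and Nfkb1 were 3.90-fold and 2.09-fold lower (7493 and 1937 counts, and 5191 and 2502 counts). Nfkb2 lies on chromosome 19, whose 487 measured genes had a median log2 ratio of -0.62. Over the 8 pathway lists together, 21 of 96 genes with the minimum count were higher (21.9%, beside 16.0% of all genes) and 10 were lower (10.4%, beside 10.3%). These lists too were chosen with earlier results of these data known.

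**Figure D5:**
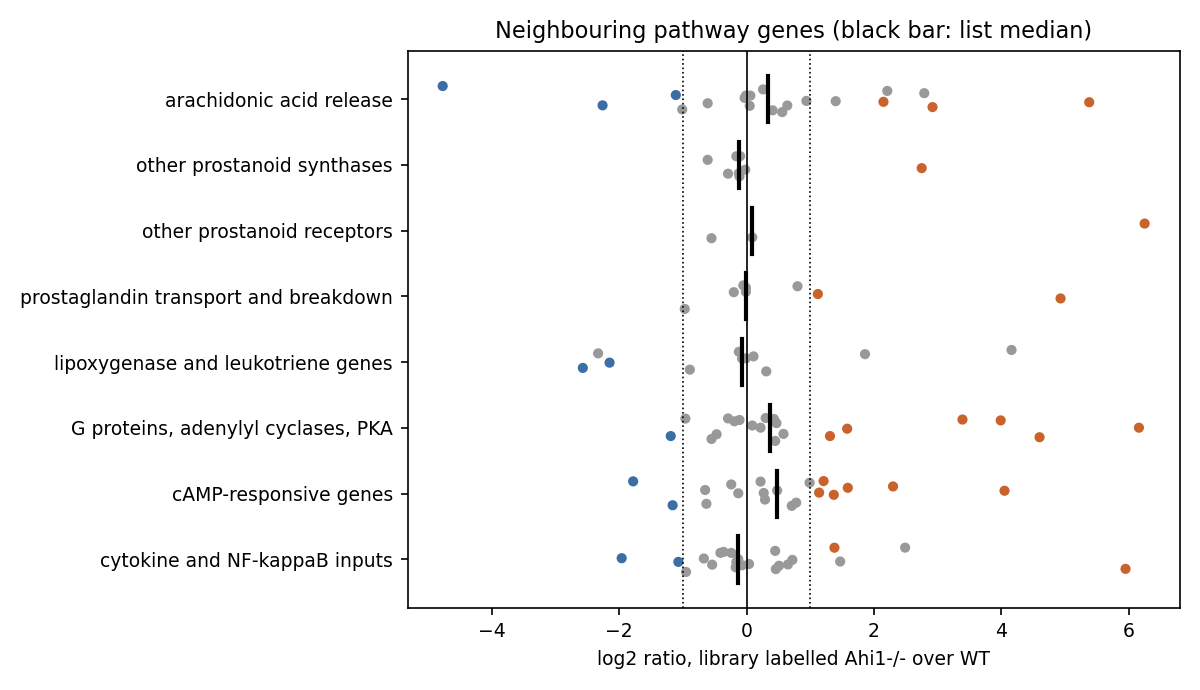
Log2 ratio (library labelled Ahi1-/- over WT) of every gene with at least 10 summed counts in 8 lists of neighbouring pathway genes; orange points were called higher, blue lower, grey neither, and black bars are list medians. The medians lie between -0.13 and 0.48, with single genes far from 0 in both directions.

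Markers of other cell types differed between the libraries as well. Counts of markers called are given over those with the minimum count, beside 16.0% (higher) and 10.3% (lower) of all genes, and the markers named were chosen after their values were seen. Smooth muscle cells are a known source of prostacyclin synthase. Of 10 smooth muscle markers, 9 had the minimum count and all 9 were higher, and the summed level of the list went from 402 to 8930 TPM.

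Endothelial cells also make prostacyclin. Of 10 endothelial markers 2 had the minimum count, Flt1, which was higher (837 and 2185 counts, 13.94 and 38.23 TPM), and Egfl7, which was lower (236 and 117 counts). The list summed to 38.9 and 51.3 TPM, and Flt1 carried the increase. Among the others, Cdh5 had 9 and 1 counts, Pecam1 7 and 2, Kdr 20 and 20, Tek 8 and 9, Esam 9 and 3 and Emcn 1 and 8. Tie1 (20 counts in WT) and Robo4 (2 in WT) were at 0 in the library labelled Ahi1-/-.

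Leukocytes and macrophages express Ptgs1 and can express Ptgs2. Of 12 of their markers 6 had the minimum count, 1 of them higher and 3 lower, with sums of 52.1 and 57.8 TPM and none at 0. Of the 12, 4 had a log2 ratio above 0, and the median was -0.61. Lyz2 (10.21 and 34.2 TPM) carried the increase of the sum. Lyz2 (96 and 315 counts), Adgre1 (4 and 39), Itgam (12 and 39) and Cd68 (50 and 56) had more counts in the library labelled Ahi1-/-. Cd14 (199 and 85), Coro1a (136 and 11), the pan-leukocyte gene Ptprc (23 and 10) and Csf1r (109 and 76) had fewer. So did Laptm5 (53 and 26), Fcer1g (24 and 15), Tyrobp (18 and 13) and Cd53 (28 and 17). Of 6 mast cell markers 1, Gata2, had the minimum count and was higher (91 and 283 counts). Gata2 held 3.04 and 9.69 TPM of list sums of 4.03 and 10.1 TPM. Hdc had 15 and 4 counts. Kit (0 and 3 counts), Mcpt4 (0 and 1) and Ms4a2 (0 and 1) were at 0 in WT, and Cma1 (3 and 0) in the other library.

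Of 9 epithelial markers 5 had the minimum count and all 5 were higher (18.9 and 46.2 TPM), with Krt5 and Cldn4 at 0 in WT. All 10 chondrocyte markers had it, with 0 higher and 9 lower (1090 and 61.5 TPM). Of 9 red cell markers 5 had it and all 5 were lower (1340 and 21.1 TPM), with Gata1 at 0 in the library labelled Ahi1-/-. The part of these cell types in the ratios of the prostaglandin genes was not tested.

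A second table deposited by the authors lists FPKM values for 3872 of the 17260 genes (22.4%), by a rule not given in the sources used here. Of all genes called higher or lower here 94.2% are in it, and 287 of its 3872 genes lay within 2-fold by the ratio used here. A place in it is therefore not separate evidence of a difference. It holds 6 of the 10 genes: Ptgs1, Ptgs2, Ptgis, Ptger2, Ptger4 and Hpgd. Ptgs1 stands there at 44.27 and 12.61 FPKM, Ptgs2 at 14.1 and 85.08, Ptgis at 0.53 and 11.82, and Ptger4 at 1.39 and 4.8. Ptger2 is listed at 0.03 and 0.27 FPKM and Hpgd at 0.09 and 0.86. The genes absent from it are Ptger3 and those within 2-fold, Ptges, Ptgfr and Ptgir.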

How the data were processed

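The authors deposited expected counts and TPM for 17260 mRNA genes, and FPKM for 3872 genes, in columns headed CON and EXP per the file headers. These were taken as WT and the library labelled Ahi1-/-. RSEM 1.2.12, Bowtie2 2.2.5, HISAT2 2.0.4 and build mm8 are listed, without roles, in the submitters' processing notes. Annotation, strand use and filters were not given in those notes, the labels or the file headers. Of the deposited count values 65.1% (WT) and 64.4% were whole. All 6 value columns were used.

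Counts were rounded and scaled with TMM (edgeR 4.0.16, R 4.3.3) to effective sizes of 19836009 and 20013980 counts. CPM values use these sizes. Ratios carry exact Clopper-Pearson 95% intervals for counting error, computed in Python 3.11.15 with scipy 1.17.1. For a gene at 0 in 1 library a floor of 3 counts was used there, and no ratio is given where both libraries had 3 counts or fewer. Members and lists were chosen with earlier results of these data known. Other genes named are, per pathway list, up to 4 with the largest absolute ratio among those called, or the 2 with most counts where none was called. Genes outside this rule, markers included, are marked in the text as named after their values were seen. Motifs were chosen after the promoter sequences were seen. Chromosomes and promoters come from RefSeq GRCm38.p6, not the authors' build. The calculation was tested on simulated counts that hold counting error only and no variation between cultures. Alternatives covered scaling (DESeq2 1.42.0, total counts, upper quartile), TPM, chromosome medians, minimum counts, fold and floor.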

Additional observations from a re-analysis of the deposited data

How the results depend on the processing

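The 4 calls (Ptgs2, Ptgis and Ptger4 higher, Ptgs1 lower) gave the same counts of 3 and 1 under DESeq2 size factors, total counts, upper-quartile scaling, deposited TPM, subtraction of chromosome medians, a minimum of 200 counts, a 1.5-fold threshold and the requirement that the whole counting interval lie beyond 2-fold. A minimum of 10 counts gave 5 higher, adding Hpgd and Ptger2. A 4-fold threshold gave 2 higher and 0 lower. The median log2 ratio of the members was 1.73 to 2.05 under the other settings, but 0.20 with a minimum of 100 summed counts, which leaves out Hpgd and Ptger2. Counts in place of TPM, an alternative chosen after seeing the data, gave Ptgs2 shares of 30.2% and 89.4%. Total-count scaling moved the median of all genes by -0.11. Over all settings, the FPKM ratio (also chosen after seeing the data) included, log2 ratios ran from -1.81 to -1.46 for Ptgs1, 2.42 to 2.76 for Ptgs2, 4.47 to 4.70 for Ptgis and 1.77 to 2.05 for Ptger4. Ptges (-0.21 to 0.02) and Ptgir (-0.04 to 0.29) changed sign. Of 69 single-gene values under alternatives, 60 stayed within their counting interval and 9 did not. Of 40 pathway list medians under alternatives, 37 stayed within the median bounds of their genes' intervals and 3 did not. The median of the G protein, adenylyl cyclase and protein kinase A list fell from 0.37 to 0.25 (total counts) and 0.22 (chromosome medians). That of the cytokine list went from -0.13 to -0.24 (total counts), and the medians of 2 other lists changed sign. No paired analysis was possible because each genotype has 1 library. Low counts limit Ptger2, Ptger3 and Hpgd.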

Other observations

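The lipoxygenase branch, which turns arachidonic acid into leukotrienes and hydroxy fatty acids, was thinly expressed. Of 15 lipoxygenase and leukotriene genes in the table, 4 reached 50 counts in 1 library or both, and of these 0 were higher and 2 lower in the library labelled Ahi1-/- (16.0% and 10.3% of all genes were higher and lower). Alox15, a 12/15-lipoxygenase, had 259 and 44 counts (5.94-fold lower, log2 -2.57, -3.07 to -2.10) but 9.34 and 0.28 TPM, a log2 difference of -5.06. Mgst2, which can make leukotriene C4, had 88 and 20 counts (4.44-fold lower). Alox5, the first enzyme of leukotriene synthesis, had 4 counts in each library, and its partner Alox5ap had 17 in each. Lta4h, which makes leukotriene B4, was the most abundant gene of the list with 1519 and 1458 counts (log2 -0.07). Ltb4r1, its receptor, had 1 and 18 counts (log2 4.16, 1.49 to 9.54). Alox5, Alox5ap, Lta4h and Ltb4r1 were named after their values were seen.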
